A study of Mus musculus with 88 samples.

Results

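A set of 8 genes of the pluripotency network and the Lin28 RNA-binding pathway was followed through differentiation of mouse embryonic stem cells with or without subunits of Polycomb Repressive Complex 2 (PRC2). The 8 genes were chosen by name: Pou5f1, Sox2, Sall4, Utf1, Lin28a, Lin28b, Trim71 and L1td1. All 8 were found in each of the 4 tables, which list 53697 genes (mesoderm), 54393 genes (endoderm), 26007 genes (bulk embryoid bodies) and 15830 genes (single cells).

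Directed and single-cell samples were mouse embryonic stem cells grown in serum with LIF. Their labels give the strain of each sample as E14, whereas the study's methods name E14 as the WT line and match the null lines to other WT lines for bulk sequencing. Genotype and line background therefore cannot be told apart where directed or single-cell samples are compared with WT. In directed differentiation, wild-type (WT), Mtf2 null and Jarid2 null cells were taken undifferentiated and after 5, 24 and 48 h of a mesoderm or an endoderm protocol. The first 24 h used Activin A, CHIR99021 and FGF2, with BMP4 added for mesoderm, followed by A-83-01 with BMP4 for lateral mesoderm or Activin A with DM3189 for definitive endoderm. Each genotype and time had 2 libraries in each protocol, which the study calls technical duplicates, so each of the 2 series held 24 libraries. Single cells came from embryoid bodies at days 4, 7 and 10 and, at day 0, from cells the study calls undifferentiated. There was 1 library for each day of the 3 null genotypes (Eed null, Jarid2 null, Mtf2 null) and of WT (16 libraries, 4949 cells). Bulk embryoid bodies at days 0, 2, 4 and 7 came from lines labelled Mtf2 null, Jarid2 null and Eed null and, in the same order, from the matched lines Pcl1-3 WT, JM8 and J1, with 1 sample for each line and day (24 samples). They were deposited as 46 columns, 1 or 2 for each sample, most pairs named r1 and r2. The study calls its bulk duplicates technical, and their agreement was not examined here. Column names read mono (taken as monolayer) at day 0 and eb from day 2 on. A change from day 0 therefore also holds the change from monolayer to embryoid body, which cannot be told apart from time. The Mtf2 null cells carry a gene trap. MTF2 is a subunit of the PRC2.1 form of the complex, JARID2 of the PRC2.2 form, and EED of the core that both forms share.

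Pou5f1 (Oct4) and Sox2 encode transcription factors that bind DNA side by side and hold embryonic stem cells in the pluripotent state. Sall4, a zinc-finger factor, and Utf1, a chromatin protein, work in the same network. Lin28a and Lin28b encode RNA-binding proteins that block the maturation of let-7 microRNAs, and let-7 microRNAs in turn repress messenger RNAs that carry matches to their seed, the Lin28 and Trim71 messages among them. Trim71 encodes an RNA-binding protein that represses messages of differentiation, and L1td1 encodes an RNA-binding protein of early embryonic cells that associates with LIN28.

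The seed of the let-7 family is shown because 4 of the 8 messages carry a match to it, by which the genes are grouped in the account of embryoid bodies. Of 11 mouse let-7 and miR-98 names in RefSeq (GRCm38.p6), 10 shared the seed GAGGUAG and let-7j alone carried GAGGUAU. In the mature sequences below, bases 2 to 8 (the seed) are in capitals.
mmu-let-7a-5p: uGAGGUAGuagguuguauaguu
mmu-let-7g-5p: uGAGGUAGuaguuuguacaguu
mmu-miR-98-5p: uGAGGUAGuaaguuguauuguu
mmu-let-7j: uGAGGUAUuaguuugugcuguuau

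The match to this seed, CTACCTC, was searched in the 3′ untranslated region (UTR) of each gene (GRCm38, the sense strand). It occurred 2 times in Lin28a (UTR of 2775 bases), 4 times in Lin28b (4445 bases), 4 times in Trim71 (5512 bases) and 1 time in Sall4 (1697 bases). Pou5f1 (221 bases), Sox2 (1086 bases), Utf1 (122 bases) and L1td1 (364 bases) had 0 matches, so the UTRs with a match were also the longer ones. The 4 genes with matches held between 0.589 and 0.9 matches per kb, against 0.0695 per kb over all 3′ UTRs, and 8.86% of 20905 genes held at least 1 match. A match of letters does not show that a microRNA acts there. Examples are given with the match in capitals and 11 bases on each side, each on the minus strand of its chromosome and written 5′ to 3′.
Lin28a site 1, chr4:134005179-134005207: agcctgttgaaCTACCTCatttttgccga
Lin28a site 2, chr4:134004541-134004569: tcgccacaaacCTACCTCactgtgttgaa
Lin28b site 1, chr10:45381012-45381040: gggcgggaagtCTACCTCatgcaagcaca
Trim71 site 1, chr9:114512462-114512490: ttgcctaagtcCTACCTCagcttaaattt
Trim71 site 2, chr9:114512366-114512394: ataatttctatCTACCTCaactctttgca
Sall4 site 1, chr2:168748930-168748958: ctttaatttatCTACCTCaattatcttta

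Directed libraries held 9111880 to 16898264 estimated counts each and bulk embryoid body samples 4071242 to 30457254 recovered reads. Single-cell libraries held 202 to 347 cells, with median depths of 5000 to 10600 UMIs (unique molecular identifiers, one for each captured molecule) per cell. All libraries used the same 384 well names, so barcodes are shared between plates by design. The targeted transcripts were read first. In the directed series Mtf2 stood at 30.2 to 38.2 CPM (the usual scaling of a count by its library total) in Mtf2 null libraries and 206 to 509 CPM in WT. Jarid2 did not separate the genotypes in the same way: at 24 h the libraries labelled Jarid2 null held less of it (189 to 288 CPM against 318 to 339 CPM in WT), whereas at 48 h it stood at 347 to 448 CPM against 307 to 407 CPM. In single cells, WT libraries held 365 to 793 CPM of Mtf2 UMIs against 53.7 to 61.1 in Mtf2 null, 215 to 594 CPM of Jarid2 UMIs against 115 to 185 in Jarid2 null, and 115 to 478 CPM of Eed UMIs against 1.33 to 11.5 in Eed null. In bulk embryoid bodies the lowest day 0 level of Mtf2 was in the line labelled Jarid2 null (127 CPM), not in the line labelled Mtf2 null (315 CPM), and Eed at day 0 was 112 CPM in the line labelled Eed null and 107 CPM in J1. Jarid2 null in the directed series and all null names in bulk embryoid bodies are therefore used below as labels.

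In undifferentiated WT cells all 8 genes were expressed, with Pou5f1 the highest and Lin28b the lowest per length of transcript. Over the 4 WT libraries of both series Pou5f1 reached 360 ± 44 CPM per kb of exon (SD, n = 4), followed by L1td1 (118 ± 19.5), Utf1 (105 ± 26), Sox2 (91.5 ± 18), Lin28a (56.2 ± 9.76), Sall4 (50.7 ± 12.2) and Trim71 (45.7 ± 8.63). Lin28b was far below the others at 2.5 ± 0.513 CPM per kb. In these directed libraries Pou5f1 and Lin28b stood clear of their neighbours in the order. In the 3 WT lines of the bulk embryoid body series at day 0 (monolayer by column name), Lin28b was again clear of the others (3.7 CPM per kb, 2.52 to 4.95). Pou5f1 (264, 200 to 356) overlapped Sox2 (197, 169 to 220). In the directed libraries L1td1 (98.3 to 141), Utf1 (83.1 to 137) and Sox2 (75.8 to 110) overlapped between them, and below these, without overlap with them, so did Lin28a (47.3 to 64.8), Sall4 (39.7 to 61.2) and Trim71 (38 to 53.4). Over the 12 groups of a series, each gene moved between 1.6-fold (Pou5f1, endoderm) and 4.01-fold (Utf1, mesoderm) from its lowest to its highest group mean. Between 5 (Trim71, both series) and 10 (L1td1 mesoderm, Lin28b endoderm) of the 11 neighbouring pairs in these orders overlapped between libraries.

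**Figure D1:**
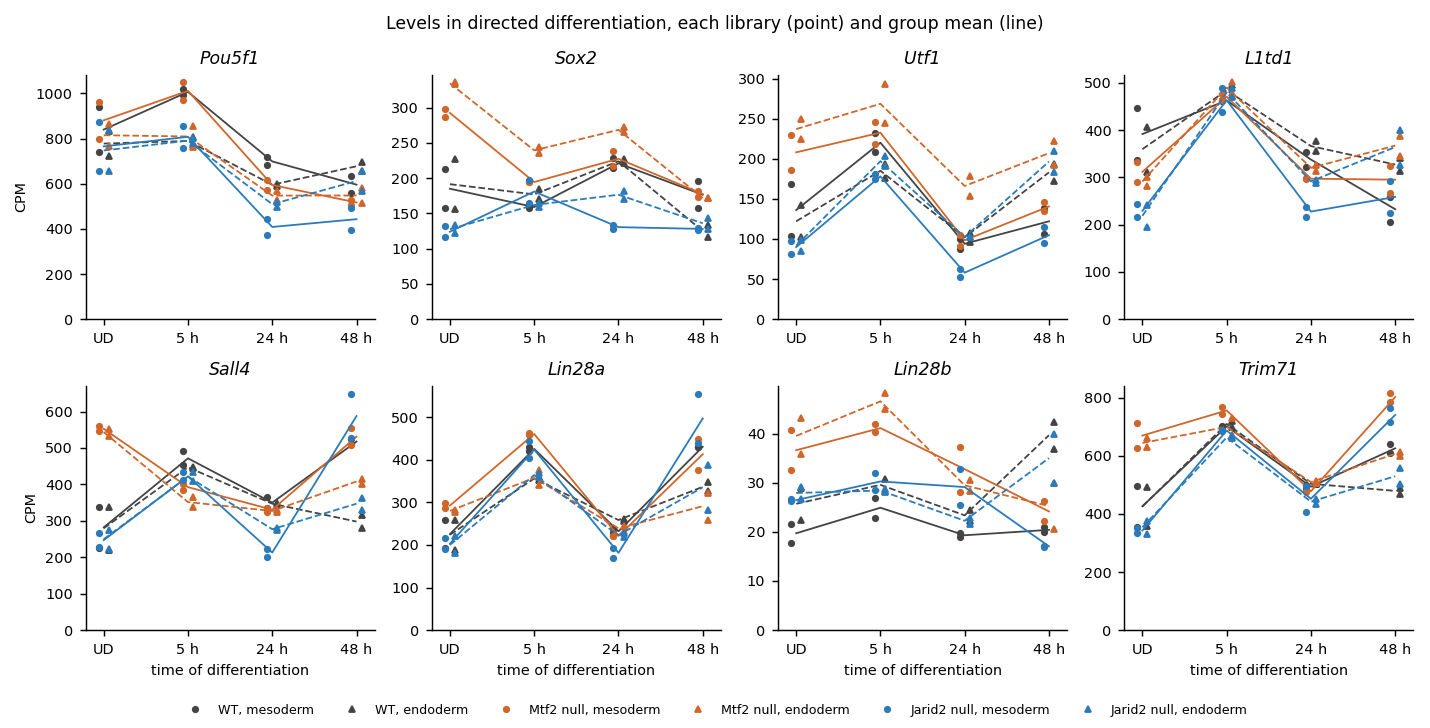
Level of each gene (CPM, y axis from 0) in undifferentiated cells (UD) and at 5, 24 and 48 h of differentiation. Points are single libraries (circles mesoderm, triangles endoderm), lines join group means, and colour gives the genotype (WT, Mtf2 null, label Jarid2 null). Undifferentiated Mtf2 null libraries lie above WT for Sall4 (534 to 559 against 220 to 339 CPM), and Lin28a in WT mesoderm rises to 420 and 431 CPM at 5 h and is back at 227 and 237 CPM at 24 h.

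In the directed series, undifferentiated Mtf2 null cells held more of 6 of the 8 messages than WT, and less of L1td1. Sall4 stood at 559, 546, 553 and 534 CPM in the 4 Mtf2 null libraries and at 339, 225, 339 and 220 CPM in WT. The groups did not overlap, and the difference was 0.98 ± 0.13 on the log2 scale (SE, adjusted p = 1e-05, edgeR quasi-likelihood test with Benjamini-Hochberg adjustment over 16655 genes). Sox2 stood at 298, 287, 336 and 333 CPM against 213, 157, 227 and 156 CPM, again without overlap (0.74 ± 0.11, adjusted p = 2.6e-05). Lin28b, the scarcest member, stood at 40.7, 32.5, 43.2 and 35.8 CPM against 21.6, 17.8, 29 and 22.4 CPM (0.76 ± 0.11, adjusted p = 2.6e-05). Utf1 (0.80 ± 0.13, adjusted p = 0.00012) and Trim71 (0.64 ± 0.11, adjusted p = 0.00014) were also higher, with Utf1 at 186 to 249 CPM against 102 to 168 CPM and Trim71 at 628 to 712 CPM against 355 to 498 CPM. Lin28a was 0.36 ± 0.10 higher (adjusted p = 0.0069) and L1td1 was lower (-0.31 ± 0.10, adjusted p = 0.019), the latter with overlapping libraries (281 to 332 CPM against 312 to 446 CPM). Pou5f1 gave 0.08 ± 0.11 (adjusted p = 0.59), with 766 to 964 CPM against 722 to 938 CPM.

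At an adjusted p under 0.05, 7 of the 8 genes passed in undifferentiated Mtf2 null cells, where 54.5% of all genes tested passed. At the study's limits (adjusted p under 0.001 and a log2 change above 1 in size) 0 of the 8 passed, against 14.7% of all genes. Their median log2 change was 0.69, and that of all genes -0.04. WT replicate 2 of both series was the lower of its pair for all 8 genes, and undifferentiated libraries of the same number lay closer together across the series (2 to 3.29 times counting noise) than those of different number (3.63 to 8.11 times). No label states that the 4 libraries are separate cultures, and the study calls its duplicates technical. The p-values here and in all other directed comparisons therefore measure only the spread between such libraries. With same-numbered libraries added together, 2 against 2, 5 of the 8 genes passed at 0.05, an alternative chosen after seeing the data. The other tables, with 1 sample or library for each line and day, did not give the same direction for every gene. In the bulk samples of day 0 (monolayer by column name), the line labelled Mtf2 null held less Sox2 than its Pcl1-3 WT partner (243 and 414 CPM) and less Lin28b (27.2 and 33 CPM). Sall4 (340 and 303 CPM), Utf1 (249 and 158 CPM), Lin28a (244 and 179 CPM) and Trim71 (588 and 487 CPM) were higher in the labelled line. In single cells at day 0, Utf1 and Lin28a were lower in Mtf2 null than in WT, as given with those libraries. Lin28a lost its call without WT undifferentiated replicate 2 of the mesoderm series (adjusted p = 0.062) and L1td1 without WT undifferentiated replicate 1 of that series (adjusted p = 0.07). Endoderm markers (Foxa2, Sox17, Gata6, Gata4, Cxcr4) moved with these genes: 5 of 5 were higher in undifferentiated Mtf2 null cells, and their summed level was 54 to 69.3 CPM against 9.71 to 12.8 CPM in WT. In bulk RNA, fewer cells of a type and less RNA per cell cannot be told apart, and the part of other cell types in these differences was not tested.

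In undifferentiated cells of the directed series labelled Jarid2 null, 3 of the 8 genes were lower and 0 were higher. L1td1 stood at 243, 215, 242 and 195 CPM against 446, 337, 407 and 312 CPM in the same WT libraries, with no overlap (log2 change -0.76 ± 0.10, adjusted p = 0.00013). Sox2 stood at 132, 116, 133 and 122 CPM against 213, 157, 227 and 156 CPM, also without overlap (-0.60 ± 0.11, adjusted p = 0.0012). Utf1 was lower by the same test (-0.52 ± 0.13, adjusted p = 0.013), at 81.8 to 98.7 CPM against 102 to 168 CPM. All 3 held without each library in turn. The other 5 genes gave log2 changes from -0.31 ± 0.11 (Trim71, adjusted p = 0.057) to 0.25 ± 0.11 (Lin28b, adjusted p = 0.13). Over all genes, 20.4% passed at 0.05 and 1.15% at the study's limits, where 0 of the 8 passed. With same-numbered libraries added, L1td1 alone of the 8 passed at 0.05 (adjusted p = 0.034, against 0.089 for Sox2 and 0.17 for Utf1). In single cells at day 0, with 1 library each, L1td1 was also lower in Jarid2 null than in WT (216 and 313 CPM of UMIs). Sox2 (976 and 981) and Utf1 (1490 and 1520) overlapped in their Poisson intervals. Lin28a was lower there (149 and 314) and Sall4 higher (325 and 256). The bulk line labelled Jarid2 null was below JM8 at day 0 for all 3 genes. These were L1td1 (330 and 415 CPM), Sox2 (306 and 452 CPM) and Utf1 (179 and 221 CPM). The directed Mtf2 null and Jarid2 null comparisons share their WT libraries, so their values are side by side and not independent.

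During the first hours of differentiation the WT cells raised several of these messages before lowering them. From undifferentiated cells to 5 h of the mesoderm protocol, 4 of the 8 genes rose at an adjusted p under 0.05, against 36.6% of all genes (0 of the 8 and 4.13% of all genes at the study's limits). Lin28a went from 258 and 193 CPM to 420 and 431 CPM (0.92 ± 0.14, adjusted p = 4.8e-05). Sall4 (0.74 ± 0.15), Trim71 (0.72 ± 0.13) and Utf1 (0.70 ± 0.18) rose with it. Of these, Utf1 lost its call without WT undifferentiated replicate 2 (adjusted p = 0.13).

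In the endoderm protocol 5 of the 8 rose over the same step, where 30.2% of all genes passed (0 of the 8 and 2.1% at the study's limits). These were Trim71 (0.74 ± 0.12), Sall4 (0.68 ± 0.14), Lin28a (0.67 ± 0.15), Utf1 (0.60 ± 0.14) and L1td1 (0.43 ± 0.13). Lin28a and Utf1 lost their call without WT undifferentiated replicate 2 (adjusted p = 0.063 and 0.091), and L1td1 without that library or WT 5 h replicate 2 (adjusted p up to 0.24). Pou5f1, Sox2 and Lin28b did not pass in either protocol, with changes from -0.22 ± 0.13 to 0.34 ± 0.16.

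From 5 to 24 h most of them fell. In the mesoderm protocol 7 of the 8 passed at 0.05, 6 of them lower, where 26.6% of all genes passed. Utf1 fell from 208 and 232 CPM to 100 and 88 CPM (-1.22 ± 0.18, adjusted p = 5.7e-05) and was the 1 gene of the 8 past the study's limits (4.41% of all genes). Lin28a fell from 420 and 431 CPM to 227 and 237 CPM (-0.87 ± 0.14, adjusted p = 9.2e-05), whereas Sox2 rose from 158 and 160 CPM to 228 and 214 CPM (0.47 ± 0.13, adjusted p = 0.012). Pou5f1 (-0.52 ± 0.16), Trim71 (-0.51 ± 0.13), L1td1 (-0.45 ± 0.15) and Sall4 (-0.43 ± 0.15) also fell. The calls of Pou5f1, L1td1 and Sall4 were lost without any 1 of the 4 libraries (adjusted p up to 0.11, 0.19 and 0.2), that of Sox2 without WT 24 h replicate 1 or either WT 5 h library (up to 0.088) and that of Trim71 without WT 24 h replicate 1 (0.058).

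In the endoderm protocol 5 of the 8 fell over this step and 0 rose, where 18.5% of all genes passed (0 of the 8 and 2.5% at the study's limits). Utf1 fell from 176 and 194 CPM to 108 and 96.2 CPM (-0.86 ± 0.14, adjusted p = 0.00021). Trim71 (-0.49 ± 0.12), Lin28a (-0.46 ± 0.15), Pou5f1 (-0.41 ± 0.12) and L1td1 (-0.40 ± 0.13) made up the rest, and of these only Trim71 kept its call without each library (Lin28a, Pou5f1 and L1td1 up to 0.14, 0.12 and 0.17 without any 1 of 4).

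Between 24 and 48 h different genes passed in the 2 protocols, a step that was not compared between them by a test. By WT means, Lin28a rose in endoderm conditions too (258 to 336 CPM). Sox2 fell (221 to 176 CPM) and Utf1 rose (94 to 122 CPM) in mesoderm as well as in endoderm conditions. Sall4 and Trim71 rose in mesoderm but not in endoderm conditions (347 to 298 and 504 to 480 CPM). In mesoderm conditions Lin28a rose again to 431 and 430 CPM (0.89 ± 0.14, adjusted p = 7.9e-05), Sall4 rose to 525 and 510 CPM (0.56 ± 0.15, adjusted p = 0.0092) and L1td1 fell to 259 and 206 CPM (-0.54 ± 0.15, adjusted p = 0.015). These were 3 of the 8, where 22% of all genes passed (0 of the 8 and 4.16% at the study's limits). Sall4 lost its call without WT 24 h replicate 1 or WT 48 h replicate 1 (up to 0.095), and L1td1 without WT 24 h or 48 h replicate 2 (up to 0.15). In endoderm conditions Sox2 fell from 221 and 227 CPM to 133 and 117 CPM (-0.84 ± 0.13, adjusted p = 4.8e-05). Utf1 rose from 108 and 96.2 CPM to 194 and 172 CPM (0.84 ± 0.14, adjusted p = 0.00019) and Lin28b from 22.2 and 24.5 CPM to 36.9 and 42.4 CPM (0.76 ± 0.16, adjusted p = 0.0018). Here too 3 of the 8 passed, each without any single library, where 19.5% of all genes passed (0 of the 8 and 3.88% at the study's limits).

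Over the whole 48 h, WT cells in mesoderm conditions ended with more Sall4, Lin28a and Trim71 and less Pou5f1 and L1td1 than they began with. Lin28a rose by 0.93 ± 0.14 (adjusted p = 2.3e-05), Sall4 by 0.88 ± 0.15 (adjusted p = 0.00011) and Trim71 by 0.55 ± 0.13 (adjusted p = 0.0025). L1td1 changed by -0.75 ± 0.15 (adjusted p = 0.00063) and Pou5f1 by -0.50 ± 0.16 (adjusted p = 0.017), from 938 and 742 CPM to 557 and 635 CPM. Thus 5 of the 8 passed at 0.05 beside 35.4% of all genes, and 0 of the 8 beside 8.64% at the study's limits. Trim71 lost its call without WT undifferentiated replicate 2 (0.057), and Pou5f1 without WT undifferentiated or 48 h replicate 1 (up to 0.17).

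In endoderm conditions 4 of the 8 passed, where 34.9% of all genes did (0 of the 8 and 8.15% at the study's limits). Sox2 fell (-0.61 ± 0.13, adjusted p = 0.00065) while Lin28b (0.63 ± 0.16), Utf1 (0.58 ± 0.14) and Lin28a (0.58 ± 0.15) rose. Without WT undifferentiated replicate 2 the calls of Utf1, Lin28a and Lin28b were lost (0.079, 0.098 and 0.1), and that of Lin28b also without WT 48 h replicate 2. Pou5f1 stood at 834 and 722 CPM at the start and 698 and 657 CPM at 48 h (-0.20 ± 0.12, adjusted p = 0.21). Of the markers of naive pluripotency, Klf4 alone passed the study's limits over 48 h of WT mesoderm (-1.23 ± 0.15). In endoderm conditions these markers moved further than the 8 genes. There 6 of 6 were lower past the study's limits, with Klf4 changing by -3.74 ± 0.20 and Nanog by -2.10 ± 0.12. Endoderm markers did not rise in WT (0 of 5 higher at 0.05, summed level 8.38 to 10.5 CPM at 48 h against 10.7 to 11.7 CPM), whereas the neural factor gene Otx2 rose by 5.41 ± 0.25 (adjusted p = 3.9e-12). These libraries are called endoderm as the protocol is labelled.

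**Figure D2:**
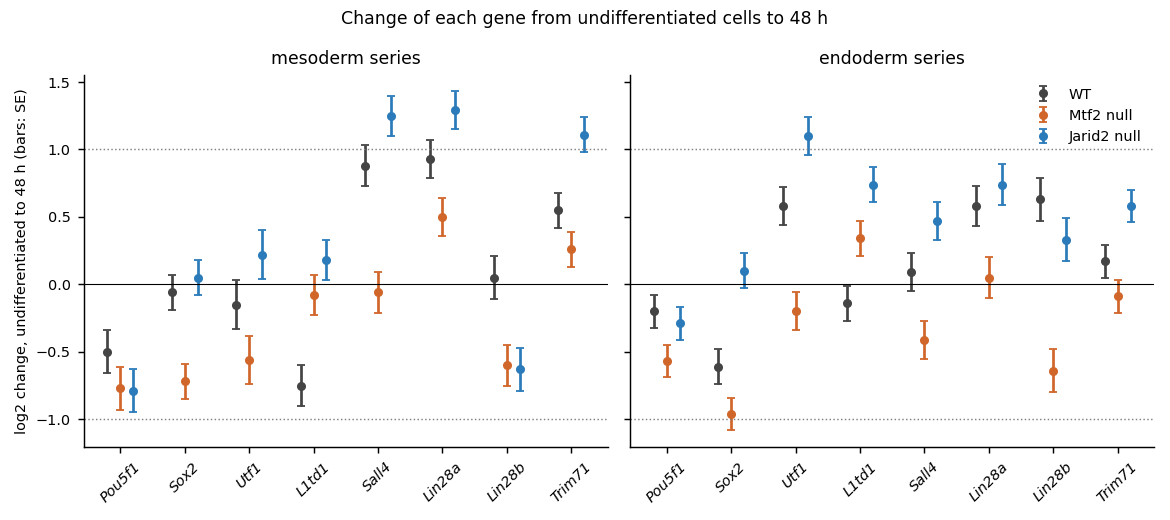
Log2 change of each gene from undifferentiated cells to 48 h (y axis, points with SE bars) in the mesoderm (left) and endoderm (right) series for WT, Mtf2 null and label Jarid2 null. Dotted lines mark a change of 1, which Sall4, Lin28a and Trim71 pass in label Jarid2 null mesoderm (1.25, 1.29 and 1.11) and Utf1 in label Jarid2 null endoderm (1.10).

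In Mtf2 null cells 1 of the 8 genes rose and 4 fell over 48 h in each protocol. In mesoderm conditions 5 of the 8 passed at 0.05 beside 30.1% of all genes (0 of the 8 and 6.28% at the study's limits). Lin28a alone rose (0.50 ± 0.14), and Pou5f1 (-0.77 ± 0.16), Sox2 (-0.72 ± 0.13), Lin28b (-0.60 ± 0.15) and Utf1 (-0.56 ± 0.18) fell. Without single libraries Lin28a (Mtf2 null undifferentiated or 48 h replicate 2, adjusted p up to 0.11), Lin28b (Mtf2 null undifferentiated or 48 h replicate 1, up to 0.11) and Utf1 (Mtf2 null undifferentiated replicate 2 or either 48 h library, up to 0.2) lost their calls. In endoderm conditions Sox2 (-0.96 ± 0.12), Lin28b (-0.64 ± 0.16), Pou5f1 (-0.57 ± 0.12) and Sall4 (-0.41 ± 0.14) fell and L1td1 rose (0.34 ± 0.13), 5 of 8 beside 36.4% of all genes (0 of the 8 and 8.93% at the study's limits). Sall4 and L1td1 lost their calls without any 1 of the 4 libraries (up to 0.11 and 0.24), and Lin28b without Mtf2 null undifferentiated or 48 h replicate 1 (up to 0.098).

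Cells labelled Jarid2 null had the largest rises of Lin28a, Sall4 and Trim71 in mesoderm conditions. In mesoderm conditions Lin28a went from 216 and 190 CPM to 439 and 555 CPM (1.29 ± 0.14, adjusted p = 4.3e-07), Sall4 from 266 and 228 CPM to 526 and 649 CPM (1.25 ± 0.15, adjusted p = 1.8e-06) and Trim71 from 352 and 334 CPM to 717 and 765 CPM (1.11 ± 0.13, adjusted p = 1.9e-06). None of these groups overlapped, and 3 of the 8 passed the study's limits where 8.5% of all genes did. Pou5f1 (-0.79 ± 0.16) and Lin28b (-0.63 ± 0.16) fell, so that 5 passed at 0.05 beside 35.1% of all genes. In endoderm conditions 5 of the 8 rose and 0 fell, beside 35.6% of all genes passing. Utf1 rose from 98.7 and 84.5 CPM to 183 and 210 CPM (1.10 ± 0.14, adjusted p = 3.3e-06) and was the 1 gene past the study's limits (8.5% of all genes). Lin28a (0.74 ± 0.15), L1td1 (0.74 ± 0.13), Trim71 (0.58 ± 0.12) and Sall4 (0.47 ± 0.14) rose with it. Sall4 in endoderm conditions lost its call without label Jarid2 null undifferentiated or 48 h replicate 2 (up to 0.14), and the other 9 calls held without each library.

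The differences between genotypes in these changes were tested directly. For Mtf2 null against WT in mesoderm conditions, 4 of the 8 differed at an adjusted p under 0.05, where 18.1% of all genes did: Sall4 (-0.93 ± 0.21, adjusted p = 0.0041), Sox2 (-0.66 ± 0.19, adjusted p = 0.019), Lin28b (-0.65 ± 0.22, adjusted p = 0.046) and L1td1 (0.67 ± 0.22, adjusted p = 0.035). Only Sall4 kept its call without each library. Sox2 lost it without Mtf2 null 48 h replicate 2, Mtf2 null undifferentiated replicate 1, WT 48 h replicate 1 or WT undifferentiated replicate 2 (up to 0.1), and L1td1 without replicate 2 of either Mtf2 null group or of WT 48 h, or without WT undifferentiated replicate 1 (up to 0.16). Lin28b lost it without replicate 1 of either Mtf2 null group, without either WT 48 h library or without WT undifferentiated replicate 2 (up to 0.23).

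In endoderm conditions 2 of the 8 differed for Mtf2 null, beside 22% of all genes: Lin28b (-1.27 ± 0.23, adjusted p = 0.00042) and Utf1 (-0.78 ± 0.20, adjusted p = 0.0067), and both held without each library. Lin28b rose in WT there and fell in Mtf2 null. For label Jarid2 null, L1td1 differed in mesoderm conditions (0.93 ± 0.22, adjusted p = 0.031, 1 of 8 beside 1.77% of all genes). L1td1 (0.87 ± 0.18, adjusted p = 0.0055) and Sox2 (0.71 ± 0.18, adjusted p = 0.021) differed in endoderm conditions (2 of 8 beside 5.62% of all genes). The mesoderm value of L1td1 was lost without either label Jarid2 null undifferentiated library, label Jarid2 null 48 h replicate 2, WT 48 h replicate 2 or WT undifferentiated replicate 1 (up to 0.18), and that of Sox2 without label Jarid2 null 48 h replicate 1, WT 48 h replicate 2 or WT undifferentiated replicate 1 (up to 0.12). The larger rises of Sall4 and Lin28a in label Jarid2 null mesoderm did not differ from WT by this test (0.37 ± 0.21, adjusted p = 0.43, and 0.36 ± 0.19, adjusted p = 0.41).

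The 2 protocols were compared in the same way, each against its own undifferentiated libraries, since a protocol and its series are the same split. In WT, Sall4 rose 0.79 ± 0.21 more in mesoderm than in endoderm conditions (adjusted p = 0.018), 1 of 8 beside 5.85% of all genes. In label Jarid2 null 3 of 8 differed beside 6.79% of all genes: Sall4 (0.77 ± 0.21, adjusted p = 0.018), Utf1 (-0.88 ± 0.24, adjusted p = 0.022) and Lin28b (-0.96 ± 0.24, adjusted p = 0.0077). In Mtf2 null 0 of 8 differed by edgeR and 0 by DESeq2 (1 at an unadjusted p under 0.05), beside 2.31% of all genes. The WT value of Sall4 was lost without mesoderm WT 48 h replicate 1, mesoderm WT undifferentiated replicate 2, endoderm WT 48 h replicate 2 or endoderm WT undifferentiated replicate 1 (up to 0.25). In label Jarid2 null, Sall4 was lost without replicate 2 of either mesoderm group or replicate 1 of either endoderm group (up to 0.13), Utf1 without replicate 1 of either mesoderm group or replicate 2 of either endoderm group (up to 0.13) and Lin28b without endoderm 48 h replicate 2 (0.1).

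After differentiation began, most differences between Mtf2 null and WT were small. At 5 h of mesoderm only Lin28b of the 8 passed at 0.05 (40.3 and 41.9 CPM against 26.9 and 22.9 CPM, 0.72 ± 0.15, adjusted p = 0.0011), where 28.7% of all genes passed and 7.56% passed the study's limits. At 24 h Lin28b again was the 1 gene (37.3 and 28.2 CPM against 19.7 and 18.9 CPM, 0.76 ± 0.16, adjusted p = 0.0011), beside 22.8% and 5.72% of all genes. At 48 h it was Trim71 (787 and 818 CPM, with both WT libraries at or below 641 CPM, 0.36 ± 0.13, adjusted p = 0.048), beside 27.9% and 6.82% of all genes, a call lost without any 1 of the 4 libraries (up to 0.17). Lin28b held at 5 and 24 h without each library.

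In endoderm conditions 3 of the 8 were higher in Mtf2 null at 5 h, beside 31% of all genes (7.61% at the study's limits): Lin28b (0.66 ± 0.16), Utf1 (0.54 ± 0.14) and Sox2 (0.44 ± 0.12). Utf1 alone was higher at 24 h (178 and 154 CPM against 108 and 96.2 CPM, 0.70 ± 0.14, adjusted p = 0.00077), beside 26.2% and 6.58% of all genes. At 48 h 4 of the 8 passed, beside 38% and 10.5% of all genes, with Sox2 (0.46 ± 0.13), Sall4 (0.46 ± 0.14) and Trim71 (0.34 ± 0.12) higher and Lin28b lower (20.5 and 30 CPM against 36.9 and 42.4 CPM, -0.65 ± 0.16, adjusted p = 0.0032). Lin28b therefore changed sides between 5 and 48 h. At 5 h Sox2 and Utf1 lost their calls without WT replicate 1 (up to 0.097) or 1 Mtf2 null library (replicate 2 for Sox2, replicate 1 for Utf1). At 48 h Sox2 lost it without WT replicate 2 (0.081), Sall4 without that library or Mtf2 null replicate 2 (up to 0.12), Lin28b without Mtf2 null replicate 1 (0.09) and Trim71 without any 1 of the 4 (up to 0.13). Endoderm markers stood at 194 to 233 CPM in summed level in these Mtf2 null libraries at 48 h and 8.38 to 10.5 CPM in WT, and their part in these differences was not tested. Over the 7 comparisons of Mtf2 null with WT and 8 genes, edgeR passed 18 of 56 tests at 0.05 (23 at an unadjusted p under 0.05, DESeq2 19), and both tools passed 0 at the study's limits.

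Label Jarid2 null cells differed from WT mainly at 24 h of mesoderm. There 5 of the 8 genes were lower and Lin28b was higher, 6 of 8 beside 23.2% of all genes (1.97% at the study's limits), with a median log2 change of -0.64 against -0.04 for all genes. Pou5f1 stood at 371 and 446 CPM against 717 and 681 CPM (-0.78 ± 0.16, adjusted p = 0.0015), Sox2 at 128 and 133 CPM against 228 and 214 CPM (-0.76 ± 0.13, adjusted p = 0.00053) and Sall4 at 202 and 224 CPM against 335 and 365 CPM (-0.72 ± 0.15, adjusted p = 0.0019). The libraries of these 3 genes did not overlap. Utf1 (-0.70 ± 0.19) and L1td1 (-0.57 ± 0.15) were lower and Lin28b higher (32.7 and 25.5 CPM against 19.7 and 18.9 CPM, 0.60 ± 0.16). Sox2 and Sall4 held without each library. Without label Jarid2 null 24 h replicate 1 the calls of Pou5f1 (0.051), L1td1 (0.13), Utf1 (0.15) and Lin28b (0.2) were lost, as was that of Utf1 without WT replicate 1 and those of Lin28b and L1td1 without WT replicate 2. Marker lists differed between the same libraries: the summed level of the naive markers was 1630 to 1670 CPM against 1910 to 1970 CPM in WT, and that of the streak and mesoderm markers 33 to 50.2 CPM against 73.3 to 76.2 CPM. Their part in these differences was not tested.

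At the other times 0 of the 8 passed by edgeR. The shares of all genes passing at 0.05 and at the study's limits were 0.212% and 0% at 5 h and 2.21% and 0.169% at 48 h of mesoderm, and 0.151% and 0.0363% at 5 h, 0.332% and 0.0312% at 24 h and 7.22% and 0.125% at 48 h of endoderm. Over the 7 comparisons, edgeR passed 9 of 56 tests at 0.05 (17 at an unadjusted p under 0.05, DESeq2 11), and both tools passed 0 at the study's limits.

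Genes tied to these 8 by function were counted beside them, at an adjusted p under 0.05. By that limit 54.5% of all genes passed in undifferentiated Mtf2 null cells, 35.4% over 48 h of WT mesoderm and 34.9% over 48 h of WT endoderm, and the counts of each list stand beside these shares. Of 10 let-7 target messages, 6 were higher and 0 lower in undifferentiated Mtf2 null cells, beside 54.5% of all genes, with a median of 0.54, and Ccnd2 (1.97 ± 0.14) and Mycn (1.49 ± 0.09) changed the most. Over 48 h of WT mesoderm, 5 of the 10 rose and 1 fell (median 0.45, beside 35.4% of all genes), led by Hmga2 (2.85 ± 0.17) and Ccnd2 (2.49 ± 0.22). Of 9 genes of microRNA processing, 7 rose and 1 fell in each protocol in WT (median 0.53 in both). Among 8 genes known to be bound by OCT4 and SOX2 together, 4 fell and 0 rose in WT mesoderm and 4 fell and 1 rose in WT endoderm. Of these, the Nodal inhibitor gene Lefty1 went from 592 and 430 counts in undifferentiated WT to 1 and 0 counts at 48 h of mesoderm, and the Nodal co-receptor gene Tdgf1 fell by 3.25 on the log2 scale (log2 change -3.25 ± 0.19, adjusted p = 1.5e-10). Zfp42 and Fbxo15 of this list were lower in undifferentiated Mtf2 null cells (-2.47 ± 0.07 and -1.56 ± 0.09), while 3 others were higher.

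Among 10 paralogs of the members, 3 rose and 3 fell in WT mesoderm and 4 rose and 1 fell in WT endoderm (beside 35.4% and 34.9% of all genes). In WT endoderm Sall2 (3.45 ± 0.26), Pou3f1 (2.64 ± 0.19) and Sox3 (2.22 ± 0.45) rose as Sox2 fell. Of 4 known repressors of Pou5f1, 1 passed the filter in undifferentiated cells. In WT, 0 of the 4 passed by edgeR in endoderm and 1 of the 3 tested was lower in mesoderm. Markers of other cells were also counted in undifferentiated Mtf2 null cells against WT, where 54.5% of all genes passed. Of the naive markers 4 of 6 were higher and 1 lower, of the primitive streak and mesoderm markers 2 of 3 tested were higher, of the neural markers 2 of 5 tested were lower, of the germ cell markers 3 of 6 were higher and 2 lower, and of the feeder fibroblast markers 2 of 2 tested were lower. Over 48 h of WT mesoderm, beside 35.4% of all genes, 3 of 6 tested streak and mesoderm markers rose, and of the neural markers 2 of 6 rose and 2 fell, whereas 3 of 6 neural markers rose in WT endoderm (34.9% of all genes). Zfp42 and Nanog stand in both the naive and the OCT4 and SOX2 lists, and Sox1 and Sox3 in both the neural and the paralog lists. Nr6a1 stands in both the let-7 target and the Pou5f1 repressor lists.

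Across the 24 libraries of each series, Sall4 and Trim71 moved together most closely of the pairs compared, by the lower of the 2 correlations of a pair (Pearson r = 0.85 in mesoderm and 0.87 in endoderm), followed by Lin28a and Trim71 (0.89 and 0.82). Pou5f1 and Sox2 did not (0.42 and 0.11), nor Lin28a and Lin28b in mesoderm (-0.03, against 0.60 in endoderm). These correlations of log2 CPM run over libraries that share genotypes and times, and are descriptions. Of 18017 genes in both series, those most like each member, by the lower of its 2 correlations, were Rbbp4 for Pou5f1 (0.92 and 0.94), Tgif1 for Sox2 (0.80 and 0.92), Trim71 for Sall4, Pfdn6 for Utf1 (0.91 and 0.87), Gpd2 for Lin28a (0.92 and 0.90), Neto2 for Lin28b (0.80 and 0.80), Arid1a for Trim71 (0.90 and 0.88) and Ing1 for L1td1 (0.94 and 0.91). Next came Syce1 and Serbp1 for Pou5f1, D6Wsu163e for Sox2, Anln and Ctnnd1 for Sall4, Sumo3 and Parp12 for Utf1, Asxl1 and Zfp473 for Lin28a, Arl4a and Mthfd2 for Lin28b, Mapk1ip1l and Lasp1 for Trim71, and Dbr1 and Skp2 for L1td1.

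From day 0 (monolayer by column name) to day 7 of embryoid body culture the 8 genes separated. Pou5f1, Sox2, Utf1 and L1td1, which have no let-7 seed match, fell in most lines, while Lin28a, Lin28b, Trim71 and Sall4, which have one, mostly kept or raised their levels. In J1 Pou5f1 went from 800 CPM at day 0 through 783 and 199 CPM to 27.3 CPM at day 7. In JM8 it went from 530 through 789 and 361 to 176 CPM, and in Pcl1-3 WT from 450 through 679 and 394 to 446 CPM. The fall was thus steep in J1, moderate in JM8 and absent at day 7 in Pcl1-3 WT. Some marker sums at day 7 followed the same order of lines, given here as J1, JM8 and Pcl1-3 WT. These were streak and mesoderm markers (1030, 385 and 65.8 CPM), endoderm markers (204, 77.3 and 17.7 CPM) and fibroblast markers (5870, 464 and 106 CPM). Naive markers (196, 837 and 1400 CPM) and germ cell markers (40.4, 194 and 427 CPM) ran the other way. Neural markers (59.5, 98.9 and 79 CPM) followed neither order. The part of these cells in the fall was not tested. Sox2 fell in the same order of lines as Pou5f1. It kept 17.3 of 348 CPM in J1, 132 of 452 CPM in JM8 and 215 of 414 CPM in Pcl1-3 WT.

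Lin28a instead rose from 197 CPM at day 0 to 442 CPM at day 4 and 226 CPM at day 7 in J1, from 302 to 525 and 426 CPM in JM8 and from 179 to 407 and 289 CPM in Pcl1-3 WT. Lin28b rose in all 3 WT lines as well, from 22.8 to 59.5 CPM, 44.9 to 91.9 CPM and 33 to 50.3 CPM between days 0 and 7. L1td1 peaked at day 2 (669, 708 and 581 CPM) and fell sharply by day 4 (43.1, 161 and 242 CPM). Trim71 stayed within 379 to 790 CPM in the WT lines, and Sall4 within 161 to 514 CPM.

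**Figure D3:**
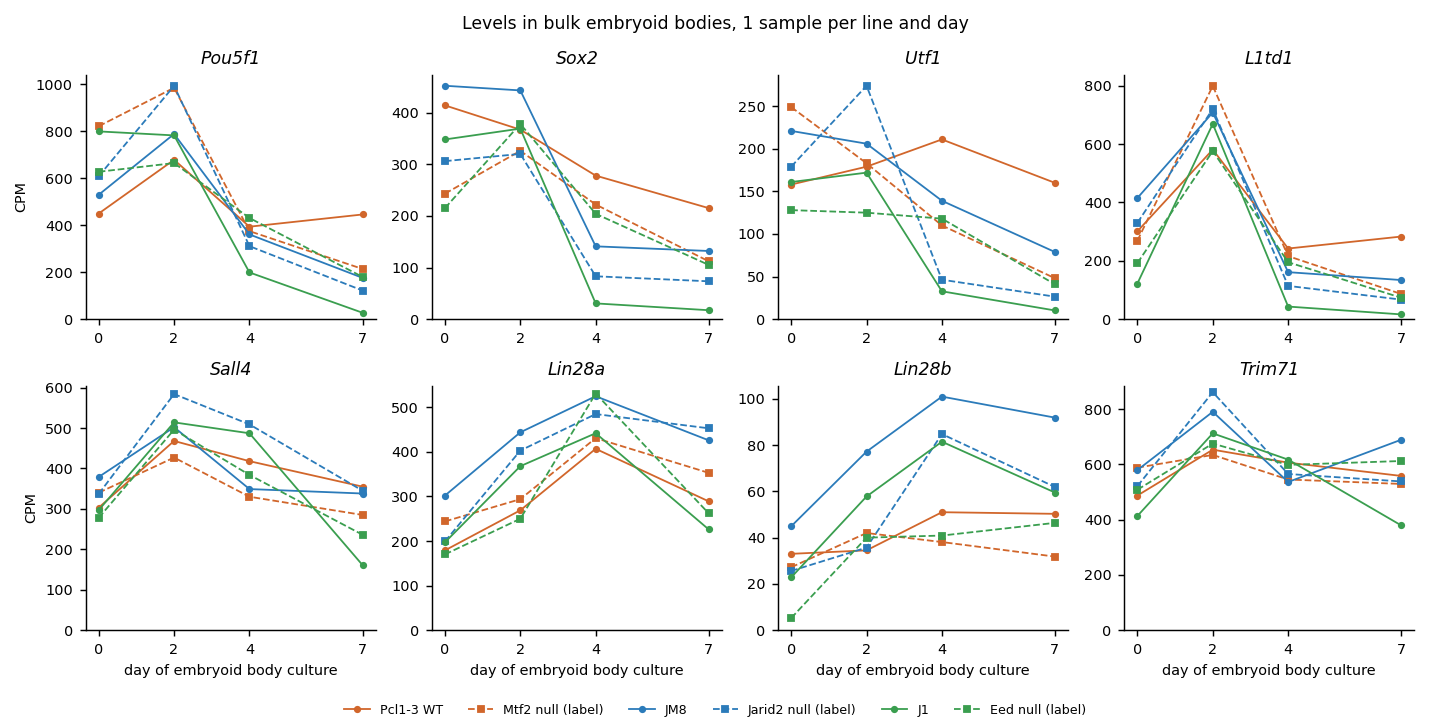
Level of each gene (CPM, y axis from 0) in the bulk embryoid body series at days 0 (monolayer by column name), 2, 4 and 7, with 1 sample per point, solid lines for the WT lines and dashed lines for the lines labelled null, in one colour per pair. Pou5f1, Sox2, Utf1 and L1td1 end low in J1 (27.3, 17.3, 10.2 and 16.3 CPM), while Lin28a and Lin28b end above their day 0 level in all 6 lines.

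Shares of the day 0 level left at day 7 compare embryoid bodies with day 0 samples that are monolayer by column name. By this measure the 3 WT lines held 3.41 to 99.1% of Pou5f1, 4.97 to 51.9% of Sox2, 6.34 to 101% of Utf1 and 13.4 to 94% of L1td1. They held 115 to 161% of Lin28a, 152 to 261% of Lin28b, 91.8 to 119% of Trim71 and 54.2 to 117% of Sall4. Over the 4 genes with a seed match the median of these 12 values was 118%, and over the 4 without one 32.8%, with overlap from Pcl1-3 WT and from Sall4 in J1. In the 3 lines labelled null the values were 83.8 to 891% with a match and 14.7 to 48.8% without, and did not overlap. Over 48 h of directed differentiation the grouping separated the genes only in WT mesoderm, where log2 changes were 0.05 to 0.93 with a match and -0.75 to -0.06 without. In WT endoderm (0.09 to 0.63 and -0.61 to 0.58) and in Mtf2 null and label Jarid2 null cells of both protocols the groups overlapped. The grouping by seed match was made after these values were known and is a description.

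Few of these steps passed a test over the 3 WT lines. By limma with line as a block, Lin28a rose from day 0 to 2 (0.68 ± 0.16, adjusted p = 0.031, 1 of 8 beside 10.8% of all genes) and L1td1 fell from day 2 to 4 (-2.45 ± 0.60, adjusted p = 0.018, 1 of 8 beside 25.3%). The step from day 0 to 2 also holds the change from monolayer to embryoid body. From day 4 to 7, 0 of the 8 passed by limma and by edgeR on recovered reads, 2 at an unadjusted p under 0.05, beside 0.158% of all genes. Lin28a lost its call without any 1 of the lines (up to 0.31), and L1td1 without JM8 (0.2). The count of 2 over the 3 steps became 0 without the filter on low values, 0 without the line block and 14 with all 24 samples in the fit.

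The labelled lines were compared with their own WT lines over the 4 days, with day as a block. Columns of 1 sample, duplicates the study calls technical, were averaged first, so that days stand in for replicates. In the line labelled Jarid2 null, Sox2 was lower than in JM8 at each day (306, 320, 83 and 73.3 CPM against 452, 443, 141 and 132 CPM, log2 change -0.66 ± 0.11, adjusted p = 0.015). Lin28b was also lower (25.6, 35.7, 84.8 and 61.9 CPM against 44.9, 77.2, 101 and 91.9 CPM, -0.68 ± 0.16, adjusted p = 0.034), and these 2 of 8 stood beside 13.8% of all genes. Sox2 lost its call without day 4 or day 7 (up to 0.085) and Lin28b without any 1 day (up to 0.12). Both calls were also lost without the filter on low values, without the day block and with all 24 samples in the fit (0 of 8 under each).

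In the line labelled Mtf2 null 0 of 8 passed by limma and by edgeR (1 at an unadjusted p under 0.05), beside 7.47% of all genes, with changes from -0.55 ± 0.18 (Sox2) to 0.24 ± 0.15 (Lin28a). In the line labelled Eed null 0 of 8 passed by both tools (2 at an unadjusted p under 0.05), beside 8.64% of all genes. Its largest values were L1td1 (1.19 ± 0.41, adjusted p = 0.12) and Sox2 (1.16 ± 0.61, adjusted p = 0.26), with Lin28b at -0.98 ± 0.28 (adjusted p = 0.083). Lin28b stood at 5.21 CPM at day 0 in that line and at 40 to 46.4 CPM from day 2 on.

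Single-cell libraries of the same 4 genotypes, with 1 library for each genotype and day and hence no test, were followed over 10 days. All 4 genes without a seed match ended below their day 0 level in each genotype, and so did 3 of the 4 with a match in WT, 4 in Eed null, 2 in Mtf2 null and 0 in Jarid2 null. Levels are UMIs summed over the cells of a library and scaled to CPM, written as UMI CPM, with exact 95% Poisson intervals, which cover counting error only. In WT, Sox2 fell from 981 (946 to 1020) at day 0 to 577 (545 to 610) at day 4, 361 (336 to 387) at day 7 and 205 (182 to 230) at day 10. Utf1 fell more steeply, from 1520 (1480 to 1570) to 771, 257 and 168 (147 to 191). Each of these steps exceeded the intervals. Lin28a went from 314 (294 to 335) to 188, 313 and 89.4 (74.4 to 107), and Lin28b from 25.1 (19.7 to 31.4) to 31.3, 67.8 and 45.1 (34.6 to 57.7).

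**Figure D4:**
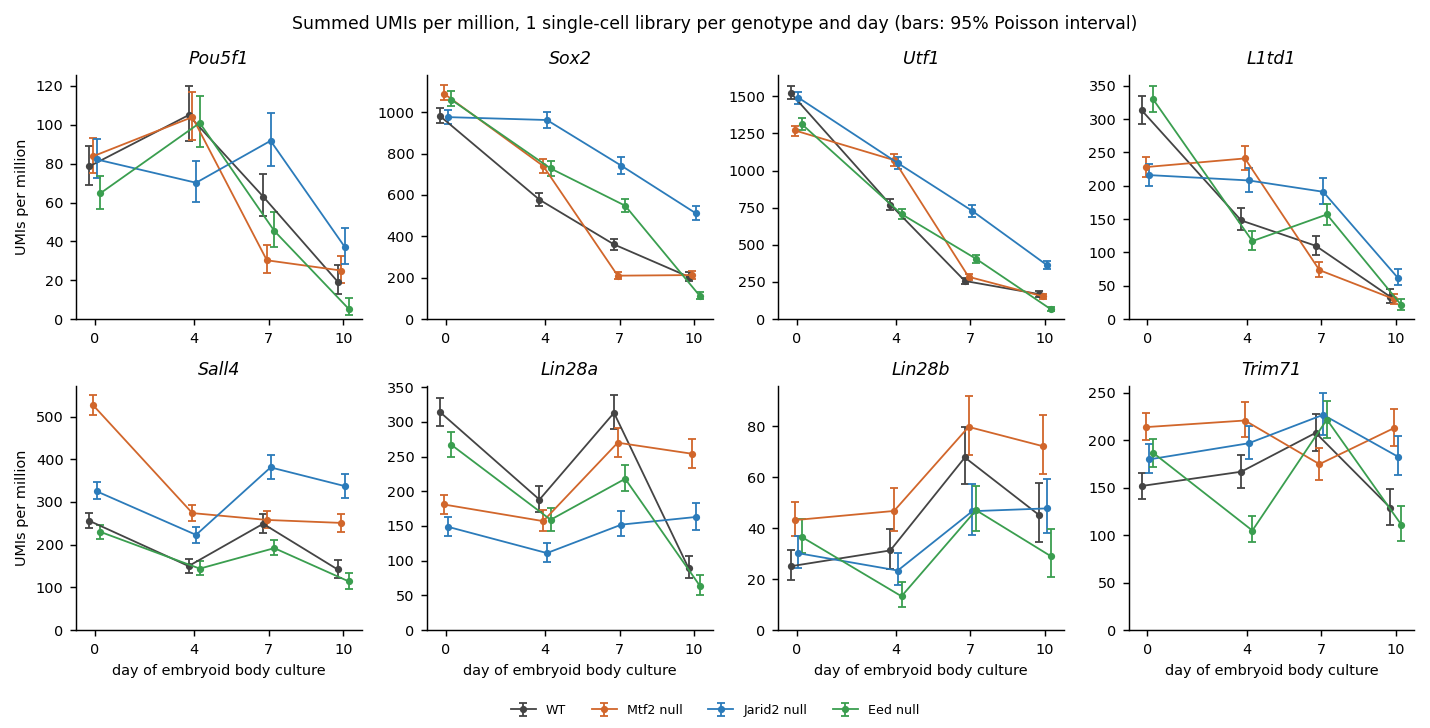
Summed UMI CPM of each gene (y axis from 0) in each single-cell library at days 0, 4, 7 and 10, coloured by genotype (the 3 null genotypes and WT), with exact 95% Poisson intervals as bars. Sox2 ends at 205 in WT and 511 in Jarid2 null at day 10, and Sall4 starts at 527 in Mtf2 null against 256 in WT.

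The genotypes differed in how much was left at day 10. Sox2 stood at 511 UMI CPM (478 to 546) in Jarid2 null, 213 (194 to 234) in Mtf2 null, 205 (182 to 230) in WT and 113 (96.1 to 133) in Eed null. Utf1 followed the same order at its ends, with 364 (336 to 394) in Jarid2 null and 67.9 (54.7 to 83.4) in Eed null. Pou5f1, which gave few UMIs in this 3′ assay, stood at 36.9 (28.4 to 47.1) in Jarid2 null, 25 (18.8 to 32.6) in Mtf2 null, 19.3 (12.7 to 28.1) in WT and 5.22 (2.1 to 10.8) in Eed null. The intervals of Jarid2 null and WT did not meet for any of these 3 genes, and those of Mtf2 null and WT overlapped for each.

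At day 7 the Mtf2 null library had already reached its day 10 level of Sox2 (210, 192 to 229), while WT stood at 361 and Jarid2 null at 741 (703 to 781). Sall4 was highest in Mtf2 null at day 0 (527, 504 to 550), against 325 in Jarid2 null, 256 (238 to 275) in WT and 230 in Eed null. Against WT, the Mtf2 null library at day 0 was also higher for Sox2 (1090, 1060 to 1130), Trim71 (214, 200 to 229, against 152, 138 to 166) and Lin28b (43.2, 36.9 to 50.2), as in the undifferentiated directed libraries, and lower for L1td1 (228, 213 to 243, against 313, 293 to 334). It was lower for Utf1 (1270, 1230 to 1300, against 1520, 1480 to 1570) and Lin28a (181, 168 to 195, against 314, 294 to 335), which were higher in the directed Mtf2 null libraries. At day 10 Jarid2 null held the most Sall4 (337, 310 to 366) and WT 142 (123 to 164). Lin28a at day 10 was highest in Mtf2 null (254, 233 to 276), then Jarid2 null (163), WT (89.4) and Eed null (64.2), and at day 0 in WT (314). Of their day 0 levels at day 10, the 4 genes with a let-7 seed match kept 28.5 to 180% in WT, 47.6 to 167% in Mtf2 null, 102 to 158% in Jarid2 null and 24 to 79.7% in Eed null. The 4 without one kept 10.7 to 24.6%, 12 to 29.8%, 24.4 to 52.4% and 5.18 to 10.7%. The groups did not overlap within any genotype at day 10, but in WT the closest values, 28.5% for Lin28a and 24.6% for Pou5f1, lay within the counting interval of Pou5f1. At day 7 they overlapped in Jarid2 null (112% of Pou5f1 and 102% of Lin28a). At day 4 they overlapped in every genotype. In WT Pou5f1 rose from 78.6 at day 0 to 105 at day 4, while Lin28a fell from 314 to 188. In Mtf2 null Pou5f1 rose from 83.8 to 104 and Sall4 fell from 527 to 274. In Eed null Pou5f1 rose from 64.8 to 101 and Lin28b fell from 36.5 to 13.3. In Jarid2 null Sox2 went from 976 to 962 and Sall4 from 325 to 223.

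Shares of cells were read after each cell was thinned to 2500 UMIs, which left out 492 of 4949 cells (84.5 to 97.4% of each library kept). Sox2 was found in 89.8% of thinned WT cells at day 0 (86 to 92.9%, exact binomial interval, as all shares here) and 22% (16.3 to 28.5%) at day 10, against 97.1% and 30.4% unthinned. In Jarid2 null 49.8% (43 to 56.5%) of thinned cells held Sox2 at day 10, in Mtf2 null 29.7% (24.5 to 35.4%) and in Eed null 12.5% (8 to 18.3%). The background of free RNA was not measured. Cluster 18, whose leading genes were embryonic haemoglobin genes, serves as a low comparison for the genes other than Lin28b, at a median depth of 6000 UMIs. There 4.72% of thinned cells held Sox2 and 7.55% Lin28a, and expression by these cells cannot be told apart from background. Pou5f1 was found in 18.8% (14.7 to 23.4%) of thinned WT cells at day 0 and 4.71% (2.18 to 8.76%) at day 10, against 1.89% in cluster 18.

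Pou5f1 and Sox2 were seen together in 16.6% of thinned WT cells at day 0 and 3.14% at day 10, and Sox2 without Pou5f1 in 73.2% and 18.8%, at a depth where Pou5f1 is often missed. At day 10, 37.7% of thinned cells in WT, 49.4% in Eed null, 17.5% in Mtf2 null and 15.2% in Jarid2 null held a UMI of none of the 8 genes. At day 0 no thinned cell of any genotype lacked all 8 (0% in each).

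Across the 22 clusters deposited by the authors (resolution 2.5), Sox2 ran from 20.8 to 1100 UMI CPM and Utf1 from 26.6 to 1540, against 41.6 to 247 for Trim71. Sox2 was found in 92.3% of thinned cells of cluster 0, mostly Mtf2 null cells of day 0, in 92.3% of cluster 17 and in 91.2% of cluster 3, mostly WT cells of day 0. It was found in 13.4% (8.78 to 19.3%) of cluster 14, led by the primitive streak genes Mesp1, Mixl1 and T, in 13.6% of cluster 4, led by Bmp5 and Foxf1 with Hand1 among its leading genes, and in 4.44% of cluster 21, led by Hnf4a and Cer1. Cluster 15, led by the neural genes Fezf2, Six3 and Lhx5, kept Sox2 in 57.1% (47.7 to 66.2%) of thinned cells, while Pou5f1 was found in 4.2% and Utf1 in 12.6%.

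**Figure D5:**
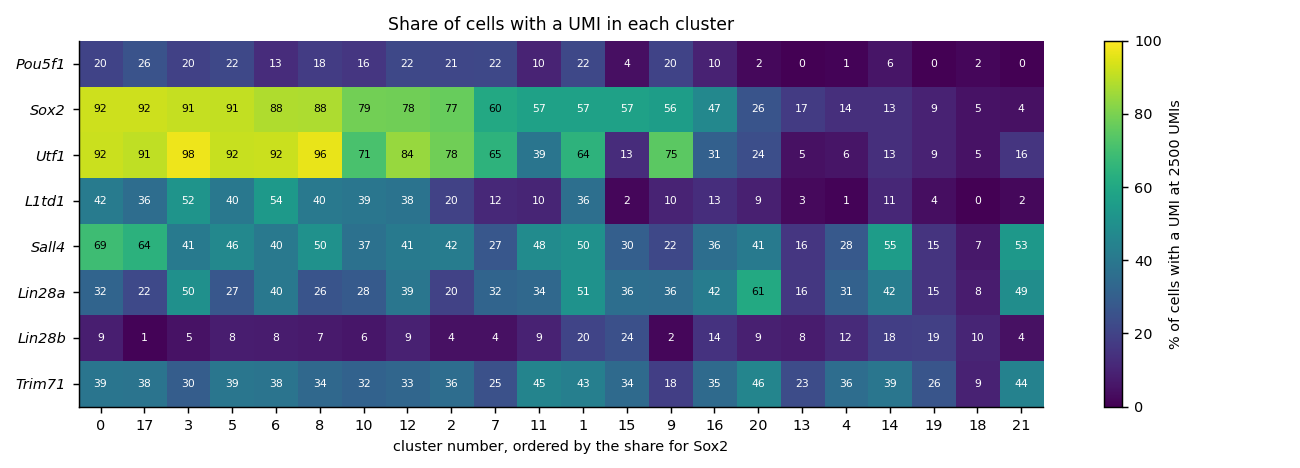
Share of cells with a UMI of each gene (rows) in each of the 22 clusters (columns, ordered by the share for Sox2), after thinning to 2500 UMIs, with the percentage written in each field. Sox2 drops from 92.3 in cluster 0 to 4.44 in cluster 21, while Lin28a and Sall4 stand at 48.9 and 53.3 in cluster 21.

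In cluster 21, Lin28a and Sall4 were found in many cells and Pou5f1, Sox2 and Lin28b in few. Lin28a was found in 48.9% and Sall4 in 53.3% of its thinned cells, and Lin28b in 4.44% (19.1 UMI CPM). For Lin28b cluster 18 is no low comparison, with 10.4% of thinned cells against 4.72% in cluster 3. Pou5f1 gave 2 UMIs, in 1 of the 47 cells (2.13%), and was found in 0 of the 45 thinned cells (interval up to 7.87%), which limits only the share of cells with a UMI. In cluster 14 Sall4 was found in 55.3%, Lin28a in 42.5% and Lin28b in 18.4%, beside Pou5f1 in 5.59%. Lin28b was highest in the neural cluster 15 (120 UMI CPM, found in 24.4% of thinned cells) and lowest in cluster 9 (9.01). Cluster 9 held mostly Eed null cells of day 4 and kept Pou5f1 in 20.3% of them, close to the 19.5% of cluster 3. In cluster 18, the haemoglobin cluster, Sox2, Utf1, L1td1, Lin28a, Sall4 and Trim71 had their lowest level of all 22 clusters (Sall4 32.3 and Trim71 41.6 UMI CPM), whereas Lin28b stood at 56.6.

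In the order of clusters by level, 21 of 21 neighbouring pairs overlapped in their intervals for Pou5f1, 20 for Lin28a and Lin28b, 19 for Sall4 and Trim71, 18 for L1td1, 17 for Sox2 and 15 for Utf1, so only the ends of these orders are apart. The clusters were made by the authors from these same cells, many hold mostly 1 library, and their defining genes are given only to name them.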

How the data were processed

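The 8 genes and all gene lists were chosen with earlier results of these data known. Directed libraries (ribosomal RNA depleted, KAPA HyperPrep RiboErase) were deposited as estimated counts per gene, which the authors made with Salmon on mouse GRCm38, and 74.9% (mesoderm) and 73.1% (endoderm) of values were whole. They were rounded, filtered (filterByExpr, minimum count 10, minimum total 15), scaled by TMM and tested with edgeR 4.0.16 (quasi-likelihood, Benjamini-Hochberg), with 1 mean per genotype and time and all 24 libraries of a series in the fit. Undifferentiated libraries of both series were fitted together (4 against 4, series as a term), and the protocols were compared in a fit of all 48. Adjusted p-values were called at 0.05, and at the study's limits of 0.001 with a log2 change above 1. Bulk embryoid body values were deposited as a signal, gene counts the authors divided by size factors. Columns of 1 sample were averaged, and log2 CPM (prior count 2, at least 1 CPM in 4 samples) were tested with limma 3.58.1. Whole reads could be recovered for 100% of values (tolerance 0.02) and were tested with edgeR as an alternative chosen after seeing the data, which made 0, 2, 0, 1, 1 and 0 calls among the 8 genes in the 6 embryoid body comparisons. Single-cell UMI counts per gene and cell (the plate-based SORT-seq protocol, aligned with Bowtie2 and counted with HTSeq) were deposited by the authors after removal of cells with few genes (lowest here 720 genes), with cluster numbers from Seurat. Doublets were not called, since cells were sorted into single wells. They were summed per library or cluster. Each cell was also thinned to 2500 UMIs.

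Named genes were all 8 members, up to 4 examples a list among those past the study's limits with the largest change, the 3 genes most like each member (1 of them is not reported here), and the targeted genes. The lists were OCT4 and SOX2 targets, let-7 targets, microRNA processing, paralogs, repressors of Pou5f1, and naive, streak and mesoderm, endoderm, neural, germ cell and feeder fibroblast markers. Otx2 and Lefty1 values come from these lists. Alternatives were DESeq2 1.42.0, RLE scaling, no filter, the replicate number as a block, other sample sets and leaving out each library. Sequencing reads of the directed and bulk series carry no molecular identifiers, and their changes are given with standard errors from the fits. The intervals are those of single-cell counts and shares, and cover only counting error and the number of cells. Within a series, same-numbered libraries of different groups did not deviate together (median correlation 0.01). In the 2 series 6 and 4 of 66 pairs lay above 0.1, so numbers were not taken as pairs. Across the series, undifferentiated libraries of the same number lay closer together, as given above. The joint fits of both series took them as separate libraries all the same. The scripts were tested on simulated data.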

Additional observations from a re-analysis of the deposited data

Results flagged for a closer look

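The values below are differences between genotypes or protocols in the log2 change from undifferentiated cells to 48 h that passed the test of the difference itself (edgeR, adjusted p under 0.05). For Mtf2 null minus WT in mesoderm conditions they were -0.93 for Sall4, -0.66 for Sox2, -0.65 for Lin28b and 0.67 for L1td1. In endoderm conditions they were -1.27 for Lin28b and -0.78 for Utf1. For label Jarid2 null minus WT they were 0.93 for L1td1 in mesoderm, and 0.87 for L1td1 and 0.71 for Sox2 in endoderm conditions. For mesoderm minus endoderm they were 0.79 for Sall4 in WT, and 0.77 for Sall4, -0.88 for Utf1 and -0.96 for Lin28b in label Jarid2 null. The genotype comparisons share their WT libraries. Of the 13, Sall4 of Mtf2 null minus WT in mesoderm, Lin28b and Utf1 of Mtf2 null minus WT in endoderm and L1td1 of label Jarid2 null minus WT in endoderm conditions kept their calls without each library in turn.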

How the results depend on the processing

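No result changed direction. With the limit of an adjusted p under 0.05 in place of the study's limits, the genes called were 18 for Mtf2 null against WT, 9 for Jarid2 null against WT, 9, 10 and 10 for undifferentiated to 48 h in WT, Mtf2 null and Jarid2 null, and 27 for the WT steps. For mesoderm minus endoderm, no filter and DESeq2 each gave 8 in place of 4. In embryoid bodies the label Jarid2 null gave 0 without the filter, 0 without the day block and 0 with all 24 samples in the fit (2 as reported). The days of WT lines gave 0 without the filter, 0 without the line block and 14 with all 24 samples (2 as reported). Leaving out each library in turn gave 3 to 6 (mesoderm minus endoderm), 6 to 13 (null minus WT), 0 to 1 and 15 to 18 (Mtf2 null against WT at the study's limits and at 0.05), 0 and 5 to 10 (Jarid2 null), 0 to 4 and 21 to 28 (WT steps), 0 to 2 and 6 to 11 (48 h, WT), 0 and 7 to 9 (48 h, Mtf2 null), 3 to 4 and 9 to 11 (48 h, Jarid2 null), 0 to 1 (label Jarid2 null), 0 (labels Mtf2 null and Eed null) and 0 to 2 (days). Of 100 single results 48 held without every library and 52 were lost at least once. With the replicate number as a block the counts were 0 and 18 for Mtf2 null, 0 and 10 for Jarid2 null, 0, 0 and 4 for 48 h in WT, Mtf2 null and Jarid2 null, 1 for the WT steps, 9 for null minus WT and 4 for mesoderm minus endoderm, and 0 of 96 single calls were lost. Over all genes in embryoid bodies, the line labelled Mtf2 null gave 1184 calls as reported, 4 without the filter, 261 without the day block and 2967 with all 24 samples. The line labelled Jarid2 null gave 2181, 1, 171 and 2373 calls under the same settings, and that labelled Eed null 1369, 0, 8 and 1825. The 3 steps of the WT lines gave 1717, 4017 and 25 calls as reported, 799, 2782 and 26 without the filter, 0, 1475 and 8 without the line block and 5449, 7116 and 2276 with all 24 samples. Depth limits the lowest values most, such as Pou5f1 in Eed null single cells at day 10 (7 UMIs). The cause of these differences was not tested.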
